A study of Mus musculus with 4 samples.

Results

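UCSC known genes are transcript models of the UCSC genome browser, built from cDNA and protein alignments, and the 4 expression tables of this study list some of them under IDs that begin with uc. Those rows were taken as one set. They numbered 1264 of 35656 transcript rows, beside 30719 rows with a RefSeq ID and 3673 with an Ensembl ID, and all 1264 carried the status OK in every library. The rows come from CJ9 mouse embryonic stem cells of strain 129S4/SvJae, wild type and titled Cas9 only, the control arm of a study that deleted the Evx1as/Evx1 locus. RNA was taken at day 4 and day 6 after withdrawal of LIF, the cytokine that holds mouse embryonic stem cells in the undifferentiated state, with 2 libraries a day. The culture text in the labels disagrees with the titles on the days for 3 of the 4 libraries, and the days given here are those of the titles. Whether the 2 libraries of a day are separate cultures is not stated in the labels, and the p-values describe only how these libraries vary, which may be technical variation.

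Transcript models that RefSeq does not carry tend to be of a few kinds. Some are cDNA clones that end inside the untranslated region (UTR) of a known messenger RNA. Some are processed pseudogenes, copies of a messenger RNA that were reverse transcribed and inserted elsewhere in the genome without introns. Others are genes of the mitochondrial genome, pieces of mitochondrial DNA inserted into a nuclear chromosome, rearranging segments of immune receptor genes, or noncoding transcripts. Reads from a messenger RNA and from its processed copies can be near-identical, so the division of such reads between the loci rests on the authors' software, whose treatment of them is not given in the sources here.

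The markers of the labelled cells were present. The summed level of 9 embryonic stem cell and epiblast genes was 695 and 936 FPKM at day 4 and 193 and 173 at day 6. FPKM counts fragments per kilobase of a transcript, scaled to 1000000 mapped fragments. The 4 primitive streak genes summed to 251 and 630 FPKM at day 4 and to 21.8 and 21 at day 6. The 5 mesoderm and endoderm genes summed to 83.7 and 53.3 FPKM at day 4 and to 217 and 383 at day 6. The 5 fibroblast genes summed to 9.84 and 8.39 FPKM at day 4 and to 140 and 270 at day 6, all 5 at 1 FPKM or more at day 6. Among them the days of Thy1 overlapped, at 1.98 and 1.38 FPKM, then 3.25 and 1.46, and the other members were higher at day 6. The 4 blood genes were listed at 0 at day 4 and summed to 179 and 712 FPKM at day 6, with Ptprc at 0 in every library. The part of these other cell types in the results was not tested. The tables hold no counts. The deposited intervals correspond to a depth of about 3460000 and 3370000 fragments in the day 4 libraries, replicate 1 first, and of 6170000 and 5490000 in those of day 6.

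Day 4 replicate 2 stood apart in these rows. Of 205 UCSC rows with a mean of at least 1 FPKM over the 4 libraries, which are the rows tested, it listed 79 (38.5%) at 0. The other libraries listed 18, 4 and 2 of the same rows at 0. It was the lowest of the 4 libraries for 132 UCSC rows (64.4%) and for 48.6% of the tested RefSeq rows. The median log2(FPKM + 1) of day 4 replicate 2 minus day 4 replicate 1 was -1.74 over the 205 UCSC rows and -0.23 over all tested rows, whereas the same difference between the 2 day 6 libraries was -0.06 and -0.04. The 9 rows on the mitochondrial chromosome summed to 21467 FPKM in day 4 replicate 1, 359 in day 4 replicate 2, and 3339 and 3814 at day 6. Differences between the days are given without each day 4 library where that moves them most.

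The sequences of rows that match a coding gene come first, since several of these rows are among the most abundant. A UCSC row was set beside protein-coding GENCODE M21 transcripts where it is a single block that shares at least 100 bases with a GENCODE exon. Matches were kept where the gene has a RefSeq row in the tables under the same symbol, so copies of genes since renamed are not counted. In 22 tested rows the exon part matched another gene's transcript at 98% identity or more over at least 90% of its length. Bases of a row outside that exon part were not compared. Of these, 7 matched Gapdh, the glycolytic glyceraldehyde-3-phosphate dehydrogenase, and 6 matched Rps2, a protein of the small ribosomal subunit. Tuba1b, an alpha-tubulin, Hsp90aa1, a cytosolic chaperone, and Rbmxl1, an RNA-binding protein, were each matched by 2 rows. Actg1, a cytoplasmic actin, Eef1a1, the elongation factor that brings aminoacyl-tRNA to the ribosome, and Rpl3, a protein of the large ribosomal subunit, were each matched by 1. Coordinates are on mm10 and 1-based, and each sequence is written along the strand of the GENCODE gene at the locus. The tables give no strand.

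The Gapdh copies share the last part of the coding sequence. The 196 bases below are identical in Gm2606, Gm12671, Gm5138 and bases 899 to 1094 of the Gapdh transcript, and the stop codon is in capitals:
uc007vhv.1 in Gm2606 (chr15:12575695-12575890, plus strand): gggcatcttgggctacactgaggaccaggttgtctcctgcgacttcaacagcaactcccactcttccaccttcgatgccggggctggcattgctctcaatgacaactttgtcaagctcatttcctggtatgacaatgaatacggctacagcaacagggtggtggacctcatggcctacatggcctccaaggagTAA
The 2 Hsp90aa1 copies, Gm5844 and Gm12346, carry the same 208 bases as positions 420 to 627 of the Hsp90aa1 transcript, all coding, with no difference to mark in capitals:
uc008ork.1 in Gm5844 (chr3:18009081-18009288, plus strand): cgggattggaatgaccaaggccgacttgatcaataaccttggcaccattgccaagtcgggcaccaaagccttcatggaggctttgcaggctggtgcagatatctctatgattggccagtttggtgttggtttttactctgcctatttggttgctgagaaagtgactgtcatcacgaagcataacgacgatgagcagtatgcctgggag
The Eef1a1 copy Gm13456 holds the last 113 bases of the coding sequence without a difference, with the stop codon in capitals:
uc008joj.1 in Gm13456 (chr2:40557004-40557116, plus strand): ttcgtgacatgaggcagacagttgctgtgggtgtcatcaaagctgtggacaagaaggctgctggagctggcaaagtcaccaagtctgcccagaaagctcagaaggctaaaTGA

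The Rps2 copies each differ from Rps2 at 1 base, and it is the same base in all 6: T106C, counted from the first base of the stretch compared, with the Rps2 base first. The window around it is shown for Rps2 and for 5 of the copies, with that base in capitals:
Rps2 (transcript bases 892 to 952): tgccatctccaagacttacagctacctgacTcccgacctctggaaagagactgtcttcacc
uc007rga.1 in Gm6311 (chr13:75954860-75954920, plus strand): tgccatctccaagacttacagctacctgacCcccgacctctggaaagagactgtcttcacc
uc007urf.1 in Rps2-ps6 (chr14:76236784-76236844, minus strand): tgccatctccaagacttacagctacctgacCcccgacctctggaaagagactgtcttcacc
uc008sgx.1 in Gm12366 (chr4:35202198-35202258, minus strand): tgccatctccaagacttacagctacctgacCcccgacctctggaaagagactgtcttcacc
uc008zsz.1 in Gm6139 (chr5:129623086-129623146, minus strand): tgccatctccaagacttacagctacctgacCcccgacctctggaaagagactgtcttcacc
uc009ltz.1 in Gm7432 (chr8:61380602-61380662, minus strand): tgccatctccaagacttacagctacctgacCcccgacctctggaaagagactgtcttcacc
A further copy comes from the mitochondrial genome. Gm10925, inside row uc007ams.1 of chromosome 1, is identical to mt-Atp6, a subunit of the mitochondrial ATP synthase, over all 678 bases compared. Its first 120 bases are shown with the first codon in capitals, and mt-Atp6 has the same letters:
uc007ams.1 in Gm10925 (chr1:24614532-24614651, minus strand): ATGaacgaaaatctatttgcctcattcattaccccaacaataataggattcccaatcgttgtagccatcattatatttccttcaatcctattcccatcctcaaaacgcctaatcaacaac

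The levels of the copies were compared with those of the genes they match, taking for each gene the summed FPKM of its RefSeq rows. Gapdh was at 1392 and 1055 FPKM at day 4 and 1378 and 1344 at day 6. The rows in Gm2606 and Gm12671, which hold the same 196 bases, did not stay with it. They are 399 and 398 bases long, and their bases outside those 196 were not compared. Gm2606 (uc007vhv.1) was at 924 and 7987 FPKM at day 4 and 2406 and 2585 at day 6. Gm12671 (uc008tos.1) was at 723 and 5789 FPKM at day 4 and 2048 and 2125 at day 6. Both were highest in day 4 replicate 2 and lowest in day 4 replicate 1. In day 4 replicate 2 the row in Gm2606 stood at 7.57 times the level of Gapdh itself, and in day 4 replicate 1 at 0.664 times.

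The other Gapdh copies had the opposite order at day 4. Gm5138 (uc009col.1) was at 353 and 6.53 FPKM at day 4 and 9.63 and 4.76 at day 6, although its exon part is the same sequence as that of Gm2606. That part is 196 of the 376 bases of the row, and the rest was not compared. Gm10358 (uc009mhh.1), which GENCODE lists as a coding gene, was at 549 and 4.28 FPKM at day 4 and 8.95 and 12.0 at day 6. Gm14760 (uc009trd.2) was at 380 and 8.99 FPKM at day 4 and 5.31 and 6.63 at day 6. Gm7336 (uc009hcg.1) was at 382 and 11.8 FPKM at day 4 and 8.07 and 8.79 at day 6. Gm10481 (uc008wlz.1) was at 629 and 80.3 FPKM at day 4 and 107 and 101 at day 6. In all 5, day 4 replicate 1 was the highest library, and in 4 of them the remaining libraries lay at 4.28 to 12.0 FPKM.

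The Rps2 copies fell into 2 patterns although all carry the same base difference. Rps2 was at 1471 and 2197 FPKM at day 4 and 2139 and 2187 at day 6. The row in Rps2-ps6 (uc007urf.1) was at 211 and 3.62 FPKM at day 4 and 262 and 277 at day 6, and the row in Gm6311 (uc007rga.1) was at 202 and 5.25 FPKM, then 252 and 270. In these 2 rows day 4 replicate 2 alone was low. The other 4 copies were at 105 to 127 FPKM in day 4 replicate 1 and at 0 to 6.77 FPKM in the remaining libraries. Rps2 itself was lowest in day 4 replicate 1, the library in which all 6 copies were at 105 FPKM or more.

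In a further group the copy and its gene were both low in day 4 replicate 2. Eef1a1 was at 2278 and 52.6 FPKM at day 4 and 3658 and 4190 at day 6. The row in its copy Gm13456 (uc008joj.1) was at 1075 and 23.9 FPKM at day 4 and 1535 and 1469 at day 6, so that the ratio of copy to gene stayed between 0.351 and 0.472 in the 4 libraries. Hsp90aa1 was at 2092 and 46.0 FPKM at day 4 and 382 and 375 at day 6. Its copy Gm12346 (uc007kgm.1) was at 142 and 0 FPKM at day 4 and 173 and 158 at day 6, and Gm5844 (uc008ork.1) was at 194 and 0, then 215 and 184. Tuba1b was at 1177 and 236 FPKM at day 4 and 1963 and 2002 at day 6. Gm3226 (uc007rwl.1) was listed above it in 3 libraries, at 2928, 4981 and 5564 FPKM, and at 35.3 FPKM in day 4 replicate 2. In those 3 libraries the deposited upper bounds of the Gm3226 row were 1017, 1650 and 1829 FPKM, below the level of Tuba1b. Gm14150 (uc008ndu.1), the other copy, was at 1501 and 15.3 FPKM at day 4 and 59.8 and 38.6 at day 6.

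**Figure D1:**
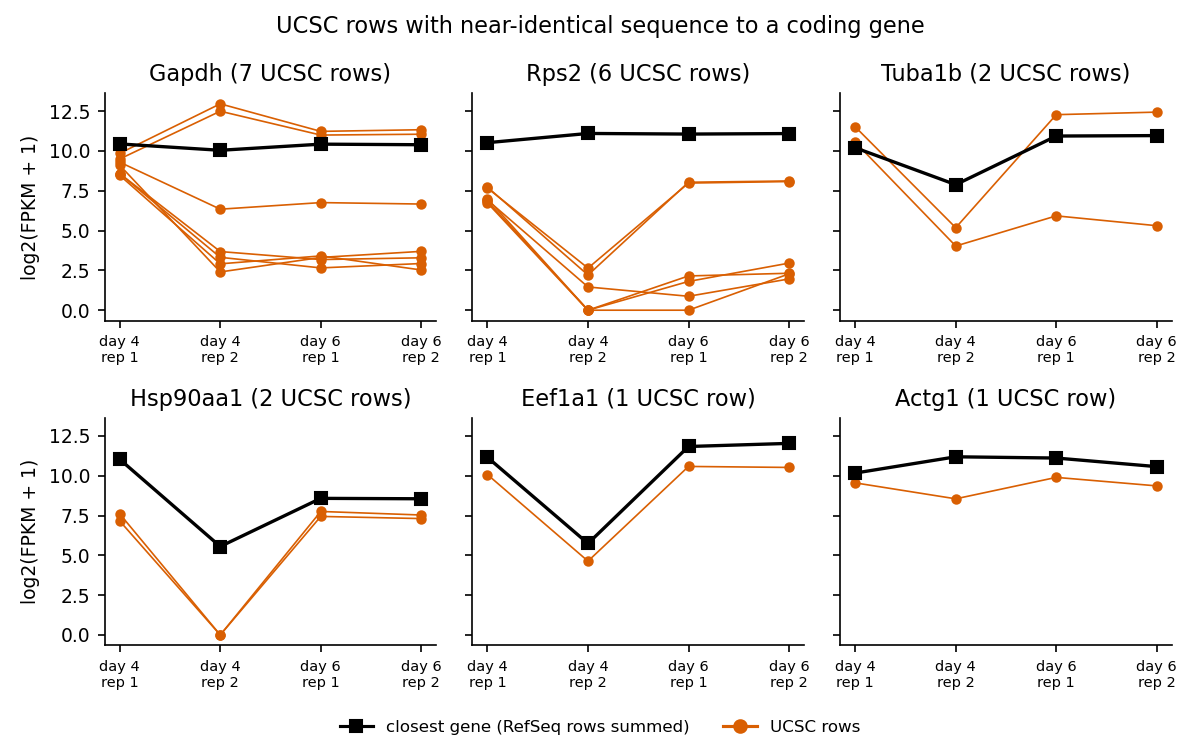
Level on the log2(FPKM + 1) scale (vertical axis) in the 4 libraries (horizontal axis) of 6 coding genes (black squares, RefSeq rows summed) and of the UCSC rows that match them (orange circles). Lines join the values of 1 row or gene and carry no order of replicates. Gapdh stays between 1055 and 1392 FPKM while its 7 copies spread, and Eef1a1 and its copy are both lowest in day 4 replicate 2.

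The copy of Actg1, Gm12715 (uc008txs.1), was at 750 and 374 FPKM at day 4 and 953 and 658 at day 6. Actg1 was at 1150 and 2336 FPKM, then 2213 and 1522. The copy in Rpl3-ps2 (uc009tnw.1) was at 23.3 FPKM in day 4 replicate 1, at 0 in the next 2 libraries and at 4.58 in day 6 replicate 2, against 669, 128, 781 and 870 FPKM for Rpl3. The 2 rows at the Rbmxl1 copy Gm7324 ran in opposite directions at day 4. One (uc007tdb.1) was at 41.6 and 7.67 FPKM, and the other (uc007tdc.1) at 36.6 and 134. At day 6 they were at 19.3 and 23.3 FPKM and at 38.6 and 33.8.

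Some deposited values lay outside their own intervals. In 38, 12, 37 and 36 UCSC rows of day 4 replicates 1 and 2 and day 6 replicates 1 and 2, the FPKM was more than 0.1% above the upper bound given for it in the same line. Copies of the kind described, with the nuclear copy of mt-Atp6, made up 22, 7, 14 and 15 of these rows. Over rows of all ID types the same held for 362, 358, 640 and 580 rows. None of the UCSC rows above their bound lay at a long noncoding gene, and rows of the other ID types were not classed. The 0.1% is only a tolerance, and in some of the most abundant UCSC rows the excess was large. In day 4 replicate 2, uc029sug.1 was at 17136 FPKM against an upper bound of 12098, and Gm2606 at 7987 against 4869. In day 6 replicate 2, Gm3226 was at 5564 FPKM against 1829, and uc008kht.1 at 1643 against 853. The cause was not tested.

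Mitochondrial transcripts carry the ribosomal RNAs and the respiratory chain subunits that the organelle encodes. The 9 rows of the tables on the mitochondrial chromosome are all UCSC rows, of which 8 were tested. mt-Co2 (uc009vez.1, chrM:7010-7699), a cytochrome c oxidase subunit, was at 4753 and 46.2 FPKM at day 4 and 1017 and 1182 at day 6. mt-Co1 (uc009vey.1), the catalytic subunit of the same complex, was at 2508 and 51.6 FPKM, then 1134 and 1373. mt-Nd2 (uc009vex.2), a subunit of complex I, was at 4410 and 34.9 FPKM, then 203 and 159. The row uc009vfc.1 was at 2582 and 33.6 FPKM, then 188 and 110. Of its 2883 bases 1160 lie in mt-Nd5, another complex I subunit. Coding sequence covers 2809 of them, so the row also holds other genes. The large ribosomal RNA mt-Rnr2 (uc009vew.1) was at 1489 and 133 FPKM, then 518 and 763. In all 8 rows both day 6 values lay between the 2 day 4 values.

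The nuclear copy had the level of its mitochondrial match. The row with Gm10925 (uc007ams.1) was at 5021 and 46.1 FPKM at day 4 and 234 and 140 at day 6. The row over mt-Atp6 (uc009vfa.1, chrM:7766-8607), with the same length of 842 bases, was at 4947, 46.1, 236 and 147 FPKM. The nearest RefSeq row to the nuclear copy, of Col19a1, was at 0 in 3 libraries and at 0.0097 FPKM in day 6 replicate 1.

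**Figure D2:**
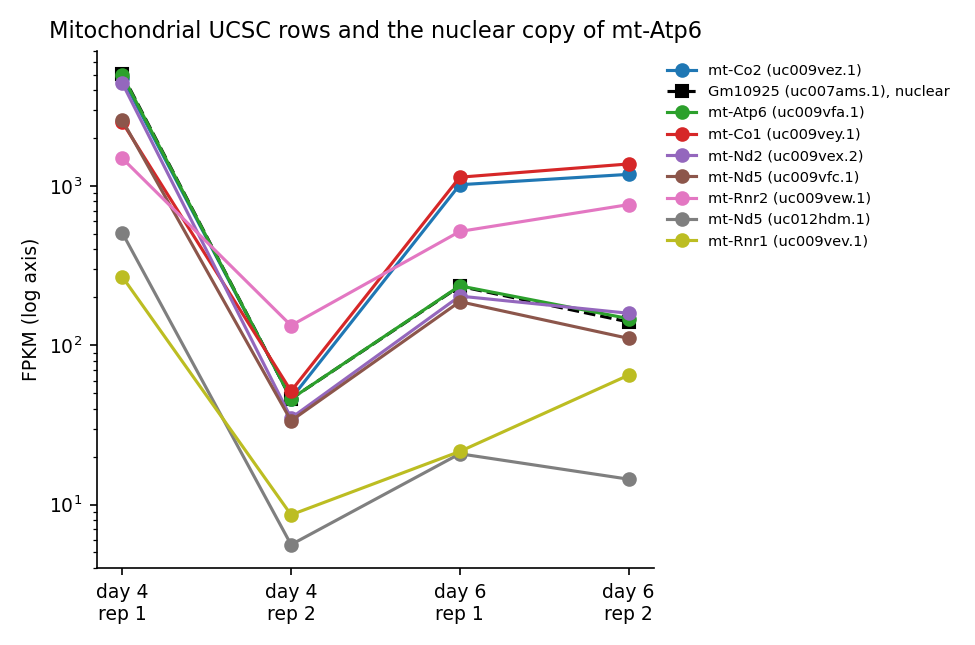
FPKM (vertical log axis) in the 4 libraries (horizontal axis) of the 8 tested mitochondrial UCSC rows (circles, solid lines) and of the nuclear copy of mt-Atp6 (squares, dashed line). All 9 are highest in day 4 replicate 1 and lowest in day 4 replicate 2, and the dashed line runs on that of mt-Atp6.

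The direction between the days of these rows depended on which day 4 library was used. With all 4 libraries, the log2 difference of day 6 minus day 4 on the log2(FPKM + 1) scale ranged from -1.66 to 1.78 over the 8 rows, and the lowest limma adjusted p was 0.691. Without day 4 replicate 1, 7 of the 8 were called higher at day 6 by limma (Benjamini-Hochberg adjusted p under 0.05), with a median difference of 2.15. Without day 4 replicate 2, where all 9 passed the filter, 6 were called lower and the median was -2.81. In either fit a single day 4 library stood for the day, its spread taken to be like that of the day 6 libraries. Among all 13694 and 14009 rows tested in these fits, 57.7% and 36.9% were called in one direction or the other.

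Over the 1264 rows, 739 (58.5%) were at 0 in all 4 libraries, 320 had some signal below the filter and 205 (16.2%) were tested. The tested share was 43.6% of RefSeq rows and 7.32% of Ensembl rows. Rows at 1 FPKM or more numbered 198 and 115 at day 4 and 202 and 203 at day 6. The set held 10.5, 6.47, 7.20 and 8.07% of the summed FPKM of the 4 libraries, and its 10 highest rows in each library made up 73.3, 95.6, 83.4 and 87.0% of that. Row length ran from 200 to 5302 bases with a median of 915, against 2404 for RefSeq. FPKM divides by length, so a short row reaches 1 FPKM with fewer fragments. Of the 298 rows that are a single block 45.3% were tested, and of the 966 spliced rows 7.25%. Just inside the filter lay uc009gwj.1, uc009oek.1 and uc007upr.1 at means of 1.02, 1.04 and 1.05 FPKM, and just outside it uc007skw.1, uc012hdk.1 and uc009uhr.1 at 0.984, 0.970 and 0.969.

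By the GENCODE gene whose exons they overlap most, long noncoding genes formed the largest class and the least detected of the large ones. Of 573 such rows 429 were at 0 throughout and 18 were tested. Rows at protein-coding genes numbered 338, with 104 at 0 and 104 tested. Rows at pseudogenes numbered 120, with 64 at 0 and 38 tested. A further 177 rows touched no GENCODE exon, 61 of them inside a gene's span, with 98 at 0 and 36 tested. Of 43 rows at immune receptor segments 41 were at 0, and the 1 tested, at the T cell receptor segment Trav12d-2 (uc007tqi.1), was at 8.11 FPKM in day 4 replicate 2 and at 0 elsewhere. None of the 4 small RNA rows was tested. The exon structure of a spliced row is not listed, so its class rests on the exons inside its span, whereas that of a single block rests on its own bases.

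**Figure D3:**
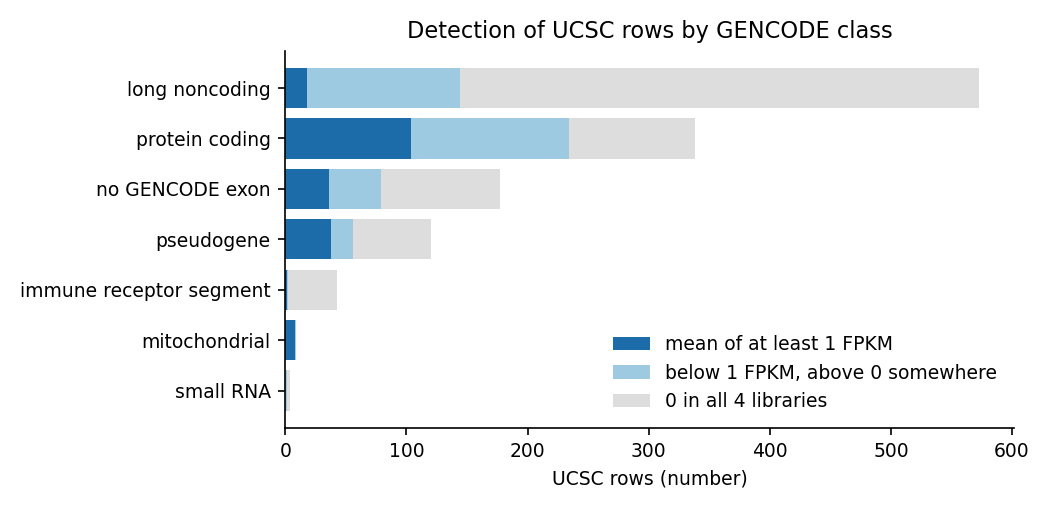
Number of UCSC rows (horizontal axis) by GENCODE class at the locus (vertical axis), split into rows tested (dark blue), rows with a mean below 1 FPKM but some signal (light blue) and rows at 0 in all 4 libraries (grey). The long noncoding class is the largest, with 573 rows, and 18 of them were tested.

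The day 6 libraries were then compared with the day 4 libraries over all 13859 tested rows of the tables. No UCSC row passed limma's adjusted threshold of 0.05 in either direction, and the share called over all rows was also 0%. The lowest limma adjusted p among UCSC rows was 0.243. At an unadjusted limma p under 0.05 there were 28 UCSC rows (13.7%), beside 15.0% of all rows. The exact two-sided permutation test of 2 libraries against 2 cannot go below 0.33. Both day 6 values lay above both day 4 values in 71 UCSC rows (34.6%) and in 39.8% of all tested rows. Both lay below in 9 UCSC rows (4.39%) and in 11.8% of all rows. Both day 6 values lay between the 2 day 4 values in 91 UCSC rows (44.4%), 67 of them with day 4 replicate 1 as the high library, and in 33.7% of all rows.

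The split of higher against lower rows depended on the scaling. With each library centred on its median, 49 UCSC rows lay above and 35 below without overlap, where all rows gave 22.2% and 24.8%. With quantile normalization, 56 lay above and 34 below, where all rows gave 23.9% and 25.0%. The median log2 difference of the 205 rows was 0.58, beside 0.53 for all tested rows, and it was -0.02 with median centring and 0.06 with quantile normalization. Without day 4 replicate 1, limma called 106 UCSC rows higher and 23 lower of 191, and without day 4 replicate 2 it called 45 higher and 41 lower of 213, against the 57.7% and 36.9% of all rows given above. The 2 fits share both day 6 libraries.

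By class, of the 104 tested rows at protein-coding genes 44 lay above without overlap and 3 below, to be read beside the 39.8% and 11.8% of all tested rows. Of the 38 pseudogene rows 11 lay above and 2 below. Of the 36 rows without a GENCODE exon 11 lay above and none below, and of the 18 long noncoding rows 5 lay above and 4 below. The median log2 difference was 1.05 for protein-coding rows, 0.01 for pseudogene rows, 0.75 for rows without an exon and 0.01 for long noncoding rows. Without day 4 replicate 1 these medians were 1.57, 1.19, 2.21 and -0.48, and without day 4 replicate 2 they were 0.53, 0.06, -0.18 and -0.43. Among the protein-coding rows 73 are a single block, of which 54 lie wholly in a UTR and 1 wholly in coding sequence. Strand is not listed, so reads from the opposite strand cannot be told apart.

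The 10 largest differences toward day 6 among rows without overlap were led by uc009iyh.1 (chr7:105558156-105558388), 233 bases in the UTR of Smpd1, the lysosomal acid sphingomyelinase. The table lists it at 0 for both libraries of day 4, whereas day 6 gave 40.3 and 39.6 FPKM, a log2 difference of 5.36 (SE 0.44, limma adjusted p = 0.243). The RefSeq row of Smpd1 was at 3.21 and 8.17 FPKM at day 4 and 21.2 and 18.2 at day 6, above in the same libraries. The row in the UTR of Tbc1d22a (uc007xed.1) was at 0 and 0 FPKM, then 11.3 and 7.34, beside a RefSeq row at 2.74 and 3.67, then 5.83 and 5.96. The deposited intervals of uc007xed.1 at day 6 were wide, from 3.78 to 18.9 FPKM in replicate 1 and from 0 to 14.7 in replicate 2. The row over Ermard (uc008aod.1), a spliced one, was at 0 and 0 FPKM, then 8.04 and 8.42. Another spliced row, uc008anr.1 at 9030025P20Rik, has the same length of 432 bases. It was at 0.709 and 0 FPKM, then 8.04 and 6.31, and whether the 2 rows share reads was not tested. In the rows at Smpd1, Tbc1d22a and Ermard the day 4 libraries were alike, at 0. These 3 rows passed the filter on the mean only through day 6. They were picked for the size of this difference, which leaving out either day 4 library cannot change.

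Chmp6 gave the same reading for its UTR row and another for its RefSeq row. The row in the UTR (uc007mre.1) was listed at 0 at day 4 in each library, and at 5.92 and 12.2 FPKM at day 6. The RefSeq row of Chmp6, a subunit of the ESCRT-III membrane scission complex, was at 17.7 and 17.0 FPKM at day 4 and 11.3 and 13.9 at day 6. The log2 difference was 3.25 for the UCSC row and -0.44 for the RefSeq row. The UCSC row passed the filter on the mean only through day 6 and was picked for the size of its difference.

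Elsewhere among the 10, day 4 replicate 2 alone was near 0. The row in the UTR of Rab7 (uc009cut.1), a GTPase of late endosomes, was at 38.8 and 0 FPKM at day 4 and 90.5 and 81.1 at day 6, and the RefSeq row of Rab7 followed it, at 90.7 and 1.72, then 164 and 140. The row in the UTR of Copz1 (uc007xxx.1), a coatomer subunit, was at 48.3 and 0.828 FPKM, then 93.1 and 94.6, beside 39.8 and 20.2, then 52.9 and 63.6 for the RefSeq row. The row in the UTR of Scd1 (uc008hps.1), a fatty acid desaturase, was at 31.9 and 0 FPKM, then 50.4 and 61.5, beside 15.6 and 4.86, then 19.5 and 27.1. A row of 200 bases near Fech (uc008feg.2), with no GENCODE exon, was at 11.8 and 0 FPKM, then 33.8 and 53.5. The copies Gm3226 and Gm12346 complete the 10, with log2 differences of 4.01 (SE 2.26) and 3.80 (SE 2.53). Without day 4 replicate 1 the differences of Gm3226 and Gm12346 were 7.18 and 7.38, and without day 4 replicate 2 they were 0.85 and 0.22. The differences of the rows at Rab7, Copz1, Scd1 and Fech were 6.44, 5.70, 5.82 and 5.45 without day 4 replicate 1. Without day 4 replicate 2 they were 1.12, 0.94, 0.79 and 1.76.

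The 9 rows with lower values at day 6 included 2 of the Gapdh copies, Gm14760 at -3.15 (SE 1.88) and Gm7336 at -2.90 (SE 1.76). Both rested on day 4 replicate 1: without it the differences were -0.53 and -0.45, not called by limma, and without day 4 replicate 2 they were -5.78 and -5.34. The row in the UTR of Fam53c (uc008eln.1) was at 24.5 and 31.5 FPKM at day 4 and 14.7 and 5.33 at day 6, and its RefSeq row at 16.7 and 28.7, then 12.2 and 11.2. The row partly over Arf6 (uc007nsi.1), a GTPase of the plasma membrane, was at 4.91 and 2.93 FPKM, then 1.40 and 0.599. The day 6 mean of this row was 0.997 FPKM, so it passed the filter on the mean only through day 4. A spliced row near Huwe1 (uc009upi.1), a ubiquitin ligase, was at 8.60 and 11.2 FPKM, then 4.06 and 4.25, while the RefSeq row of Huwe1 was at 67.1 and 5.46, then 54.2 and 61.7. In the Huwe1 row the 2 day 4 libraries were alike although the RefSeq row was not.

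**Figure D4:**
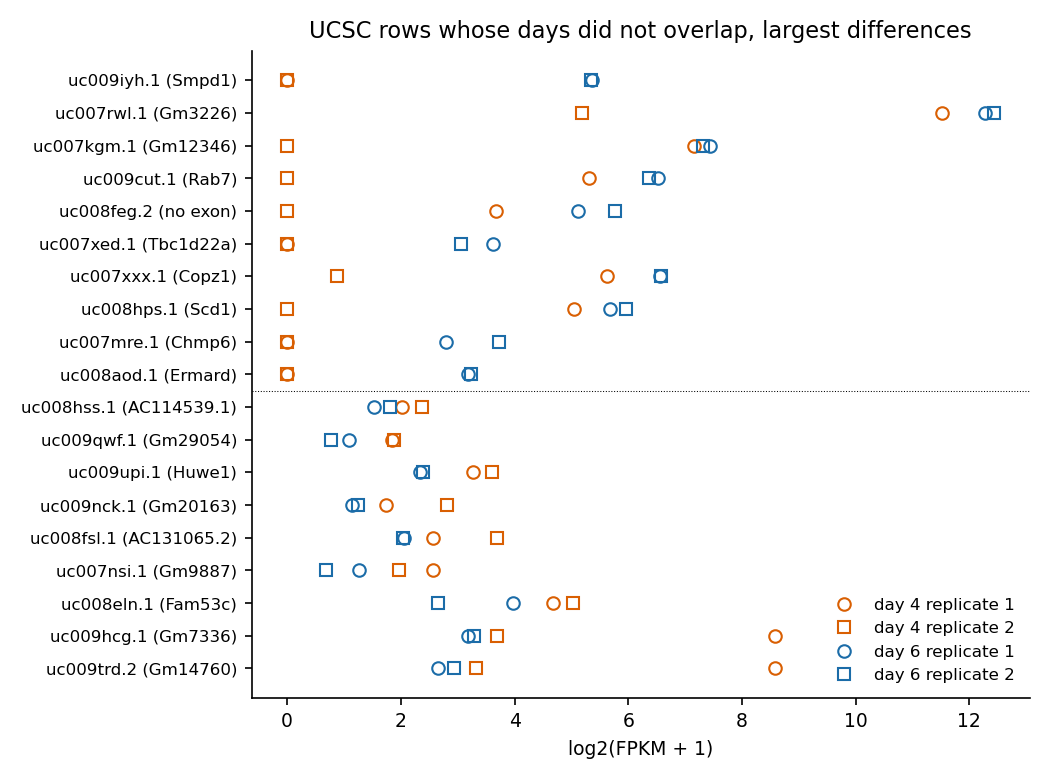
Level on the log2(FPKM + 1) scale (horizontal axis) of the 19 UCSC rows with the largest differences among rows whose days did not overlap (vertical axis, with the GENCODE gene at the locus), 10 higher at day 6 above the dotted line and 9 lower below it. Orange symbols are day 4 and blue symbols day 6, circles replicate 1 and squares replicate 2. Only in Smpd1, Tbc1d22a, Chmp6 and Ermard do the 2 day 4 symbols of the upper group coincide, at 0.

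The other 4 rows with lower values at day 6 lie at long noncoding genes. Gm29054 next to Hmgn3 (uc009qwf.1) was at 2.61 and 2.66 FPKM at day 4 and 1.14 and 0.711 at day 6. Its day 6 mean was 0.925 FPKM, so it passed the filter on the mean only through day 4. Gm20163, antisense to Exoc3l (uc009nck.1), was at 2.35 and 5.99 FPKM, then 1.21 and 1.39. AC131065.2 next to Rbfa (uc008fsl.1) was at 4.91 and 11.9 FPKM, then 3.16 and 3.11. AC114539.1, from a promoter shared with Nfkb2 (uc008hss.1), was at 3.04 and 4.20 FPKM, then 1.88 and 2.51. These 4 rows partly overlap or lie inside the neighbouring gene, and reads of the 2 strands cannot be told apart here.

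The most abundant long noncoding row lies in Neat1, the RNA around which nuclear paraspeckles form. Its first 120 bases along the strand of Neat1 are shown so that the stretch measured can be found, with none in capitals:
uc008gfl.1 in Neat1 (chr19:5844889-5845008, minus strand): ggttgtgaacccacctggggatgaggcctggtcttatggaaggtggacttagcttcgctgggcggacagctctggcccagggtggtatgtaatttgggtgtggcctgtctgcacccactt
The row (uc008gfl.1, chr19:5843983-5845008, 1026 bases) was at 23.4 and 27.7 FPKM at day 4 and 64.0 and 43.8 at day 6. Both day 6 libraries lay above both day 4 libraries, with a log2 difference of 1.03 (SE 0.47, limma adjusted p = 0.400). The RefSeq row of Neat1 was at 24.8 and 7.41 FPKM at day 4 and 26.3 and 18.8 at day 6, and its days overlapped. Among the other long noncoding rows, Gm47071, antisense at Macroh2a1 (uc007qse.1), was at 0.586 and 0.255 FPKM, then 2.76 and 4.29. Gm35082 (uc009inp.1) was at 0.553 and 0 FPKM, then 3.42 and 2.95. The rows at Gm47071 and Gm35082 passed the filter on the mean only through day 6. Gm5784 (uc007ndc.1), a spliced row with a span of 45218 bases, was at 1.26 and 7.25 FPKM, then 4.06 and 4.09.

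The most abundant UCSC row of all has no GENCODE exon. It is uc029sug.1 (chr15:86194749-86195280, 532 bases), 8608 bases from Cerk. It was at 4646 and 17136 FPKM at day 4 and 14194 and 17784 at day 6, with day 4 replicate 1 as the low library. The RefSeq row of Cerk, which encodes ceramide kinase, was at 0.178 to 0.760 FPKM in the 4 libraries. The log2 difference of uc029sug.1 was 0.83 (SE 0.87, limma adjusted p = 0.671). It was 1.77 without day 4 replicate 2 and -0.11 without day 4 replicate 1. The next in this class, uc008kht.1 of 305 bases, was at 1368 and 46.1 FPKM, then 1063 and 1643. The row uc029ryu.1 of 2715 bases, 3581 bases from Adarb2, was at 213 and 3.10 FPKM, then 33.8 and 25.9. The row uc008txt.2 was at 166 and 6.06 FPKM, then 258 and 154. In these 3 rows, unlike uc029sug.1, day 4 replicate 2 was the low library.

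Each tested row was finally set beside its nearest RefSeq row, which for 77 rows is the row whose span contains it and for 22 one that it partly overlaps. A further 21 lay within 5 kb, 41 at 5 to 50 kb and 36 over 50 kb away, and the mitochondrial rows have none on their chromosome. Across the 197 rows with a neighbour, the log2 differences of the UCSC row and the RefSeq row correlated at a Pearson r of 0.187 and a Spearman rho of 0.221. The points share the 4 libraries, and rows that overlap can share reads, so this is a description. Among the 77 rows inside a RefSeq span r was 0.127, and of the 76 with a neighbour above 0 in any library 56 had the same sign. Among the 36 rows over 50 kb away r was 0.241, but there the neighbour was at 0 in all 4 libraries for 10 rows and reached a mean of 1 FPKM for 17. Of the 26 with a neighbour above 0, 13 had the same sign. The UCSC row had the higher mean FPKM in 48 of the 77.

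**Figure D5:**
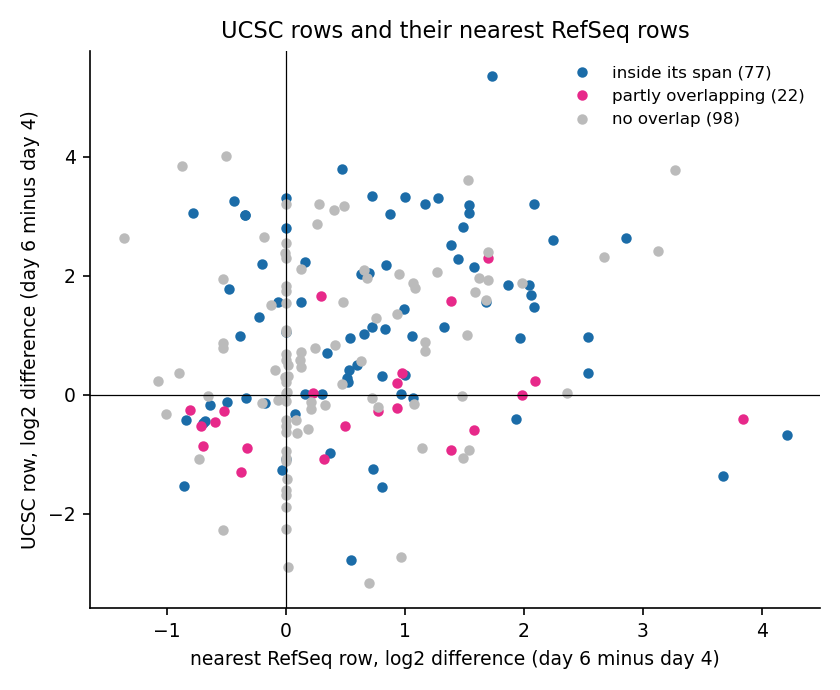
Log2 difference of day 6 minus day 4 on the log2(FPKM + 1) scale for 197 tested UCSC rows (vertical axis) and for the nearest RefSeq row (horizontal axis). Blue points lie inside the RefSeq span, pink points overlap it in part and grey points do not overlap it. The points spread over all 4 quadrants, with a Pearson r of 0.187.

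Rows inside a span included strong differences in level over 1 gene. In Csrp1, a LIM-domain protein, the UCSC row in the UTR (uc007ctp.1) was at 557 and 18.1 FPKM at day 4 and 552 and 394 at day 6, and the RefSeq row at 209 and 148, then 397 and 253. Day 4 replicate 2 was the lowest library for both rows, with a wider gap in the UTR row. Partly overlapping rows went the other way at day 4. The row at Tapbp (uc008cad.1), the tapasin gene of antigen loading, was at 5.95 and 46.4 FPKM at day 4 and 11.9 and 6.83 at day 6, and the RefSeq row at 32.5 and 29.8, then 20.3 and 17.4. The row at Herc4 (uc007fjz.1) was at 9.22 and 22.6 FPKM, then 12.2 and 7.82, beside 6.42 and 1.11, then 3.57 and 5.81. The median gap of day 4 replicate 2 over day 4 replicate 1 was 0.89 (log2) over the 22 partly overlapping rows and -1.69 over the 77 rows inside a span.

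Length went with the same difference between the day 4 libraries. In the 30 tested rows under 300 bases, the median gap of day 4 replicate 2 over day 4 replicate 1 was -4.90 (log2), and 21 of them were at 0 in day 4 replicate 2. In the 108 rows from 300 to under 1000 bases it was -1.87, and in the 67 rows of 1000 bases or more -1.17. Over the 135 single-block rows it was -2.30, and over the 70 spliced rows 0.01. The part of length and of splicing in these values was not tested.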

How the data were processed

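RNA was measured in 4 libraries, 2 at day 4 and 2 at day 6, grouped by their titles. Per the labels' protocols, poly(A) RNA was made into stranded libraries. The submitters' processing notes name TopHat2 (version 2.0.11), CASAVA and build mm10. The sources used here do not give the quantifier, its annotation release, its use of strand or how it shared out reads with several matches. The authors deposited FPKM per transcript row with a lower and an upper bound. Per the file headers, a coverage column holds a signal that was not used here. Rows were joined across libraries by ID and locus. Depth was estimated from the interval widths, taken as 2 Poisson standard deviations on each side, and intervals cover counting error only.

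Loci were compared with GENCODE M21, whose build is that of mm10, and row starts were read as 0-based, which matched 7450 RefSeq rows to a GENCODE transcript start against 410 without that shift. Exon parts of single-block rows were taken from GENCODE transcripts and searched with BLAST version 2.17.0 against coding transcripts. Nearest RefSeq rows were found by the largest overlap, otherwise by distance.

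Tests used limma version 3.58.1 in R version 4.3.3 on log2(FPKM + 1), a scale that understates changes of low rows. The model had day as its only term and was fitted with an empirical Bayes mean-variance trend. It was two-sided, with p-values adjusted by Benjamini-Hochberg over the 13859 rows whose mean was at least 1 FPKM, and a threshold of 0.05. The script was tested on simulated data with the same spread set for every row. That spread was not taken from these libraries, so the test does not show how the fit behaves on them. Named rows are those with the highest mean, overall (10) and by position, length and GENCODE class (3 each), and the 10 largest differences each way among rows without overlap. Rows named beside these, the copies included, were chosen after their values were seen. Members, lists and rules were chosen with earlier results of these data known. Alternatives for pseudocount, filter, scaling, length, status, replicate block and left-out libraries are given at the end. Other samples of the series were not analysed here.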

Additional observations from a re-analysis of the deposited data

How the results depend on the processing

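With a pseudocount of 0.1 FPKM, a filter at 5 FPKM, no filter, median centring, quantile normalization, rows of at least 300 bases or status OK only, limma called no UCSC row in either direction. Among rows without overlap, no filter gave 142 higher and 22 lower of 1264, and the filter at 5 FPKM gave 43 and 5 of 119. Median centring and quantile normalization gave 35 and 34 lower of 205. The share of all rows without overlap is not given for no filter, the filter at 5 FPKM or a left-out library. Those counts are therefore not read as particular to UCSC rows. Leaving out one library at a time, limma called 0 to 106 rows higher and 0 to 41 lower. In the same fits 78 to 137 rows lay above and 12 to 92 below without overlap, and the median log2 difference ran from 0.0743 to 1.58. That median was -0.0216 with median centring, 0.0576 with quantile normalization, 1.19 with a pseudocount of 0.1 FPKM, 1.14 with the filter at 5 FPKM, 0 with no filter and 0.422 over rows of at least 300 bases. All calls arose without a day 4 library, where the single day 4 library is assumed to vary like the others. At 0.1 FPKM, 318 and 163 rows were detected in day 4 replicates 1 and 2, and 354 and 357 in day 6 replicates 1 and 2. The Pearson r with the nearest RefSeq row was 0.143 with a pseudocount of 0.1 FPKM, 0.210 over rows that overlap no RefSeq row and 0.205 over rows of at least 300 bases, and rho was 0.2 and 0.169 under the first 2 of these. With all RefSeq rows of the neighbouring gene summed, an alternative chosen after seeing the data, r was 0.25 and rho 0.243. The titles number the replicates 1 and 2 at both days, but no label ties equal numbers to a shared culture, and deviations of equal numbers correlated at -0.19 over UCSC rows and -0.07 over all rows. With a replicate block, 0 rows were called and the median difference was 0.58. Of the 19 named rows with days that did not overlap, none reversed direction in these alternatives. They were picked for days that did not overlap, so only median centring and quantile normalization could have reversed them. Depth limits rows near the filter most at day 4, where fragments were fewest.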
